A study of Mus musculus with 4 samples.

Results

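The 38 genes described here encode the contractile and cytoskeletal machinery of smooth muscle: the smooth muscle actins, the myosin motor and its control, thin filament regulators, intermediate filaments, dense bodies, adhesion plaques, the calcium store and the transcription factors that switch these genes on. They were chosen by name from a list, and all 38 were found by symbol among the 55421 genes of the deposited count tables. All 38 passed the expression filter (at least 1 CPM in at least 2 samples, where CPM is the count scaled to the depth of its library), which kept 14492 genes. RNA was sequenced from the whole uterus of pregnant mice at E18.5, close to term, with 1 library for each of 2 WT (strain C57BL/6J) and 2 Qa-2- animals. Qa-2- mice carry the strain label B6.Cg-H2b3/FlaCmwJ and are called B6.K1 in the study. They lack Qa-2, a non-classical MHC class I molecule, because of the H2 region of this congenic strain and not through a targeted deletion. No treatment is given for either genotype and both were mated within their own strain. The strains differ by at least a chromosome segment and not by a single gene. The study obtained them from different suppliers, so supplier or other strain background cannot be told apart from the lack of Qa-2. A library was made from a piece of frozen uterus, in which several tissue layers can be mixed. The labels do not say which layer or which side of the implantation site a piece came from.

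The wall of the uterus is built from circular and longitudinal layers of smooth muscle, the myometrium, which stays quiet through most of gestation and contracts at birth. In a smooth muscle cell, calcium and calmodulin activate a kinase that phosphorylates the myosin light chain, and a phosphatase removes the phosphate again. Actin filaments are anchored in dense bodies in the cytoplasm and in adhesion plaques at the membrane, joined by desmin filaments, and many of the genes are switched on by serum response factor together with myocardin through a DNA element called the CArG box.

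The CArG box is a run of A and T letters between CC and GG. It was searched because it is a known control element of many of these genes. The search covered the 250 bases before the start of the gene in the RefSeq promoters (GRCm38.p6), which held 33 of the 38 genes. The consensus of the box reads the same on both strands, so 1 search covers both. A box was found for 7 of the 33 genes (21.2%), against 1.62% of 27025 genes with a promoter. A box with 1 base off, in which a single C or G stands in the run of A and T, was found for 5 of the 33 genes (15.2%), against 8.33% of all. The genes with a box were Myl9, Myl6, Cnn2, Srf, Vcl, Ldb3 and Fhl1, and those with a box 1 base off were Acta2, Myl9, Synm, Pdlim3 and Jph2. In Srf, which encodes serum response factor itself, a pair of boxes ended 73 and 53 bases before the start. A match is a description of these letters only. Below, capitals mark boxes and boxes 1 base off. Srf, Myl9 (a light chain), Cnn2 (a calponin) and Vcl (vinculin) stand for factor, motor, thin filament and adhesion plaque. Each is printed up to the first annotated exon base, and Acta2, whose window lies largely in an annotated exon, by 30 bases around each box.
Srf, chr17:46556176-46556412, minus strand: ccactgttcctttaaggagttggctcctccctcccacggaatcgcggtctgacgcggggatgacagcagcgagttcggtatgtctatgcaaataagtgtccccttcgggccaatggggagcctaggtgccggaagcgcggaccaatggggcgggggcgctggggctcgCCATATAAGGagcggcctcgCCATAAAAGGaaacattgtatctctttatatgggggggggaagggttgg
Myl9, chr2:156775214-156775419, plus strand: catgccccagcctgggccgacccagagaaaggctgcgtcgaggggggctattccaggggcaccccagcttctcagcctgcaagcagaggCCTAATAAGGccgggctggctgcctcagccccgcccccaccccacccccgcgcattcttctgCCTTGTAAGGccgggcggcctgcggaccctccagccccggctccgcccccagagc
Cnn2, chr10:79988350-79988583, plus strand: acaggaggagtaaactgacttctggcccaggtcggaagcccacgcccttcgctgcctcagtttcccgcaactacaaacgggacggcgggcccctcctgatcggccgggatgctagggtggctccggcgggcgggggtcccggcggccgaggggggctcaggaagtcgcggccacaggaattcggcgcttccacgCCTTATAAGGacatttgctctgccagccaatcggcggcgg
Vcl, chr14:20929148-20929397, plus strand: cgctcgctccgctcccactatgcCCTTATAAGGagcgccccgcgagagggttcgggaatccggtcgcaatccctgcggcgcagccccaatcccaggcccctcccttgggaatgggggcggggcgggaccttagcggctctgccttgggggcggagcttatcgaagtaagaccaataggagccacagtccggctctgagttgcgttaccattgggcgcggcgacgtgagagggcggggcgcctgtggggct
Acta2, chr19:34255438-34255467, minus strand: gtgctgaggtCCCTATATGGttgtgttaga
Acta2, chr19:34255388-34255417, minus strand: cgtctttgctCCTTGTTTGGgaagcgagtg

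The libraries held between 33286390 and 41041299 counts, and the WT libraries were the deeper ones. A floor of 3 counts was 0.0731 to 0.0901 CPM, a limit that covers counting error only, and the lowest count of any of the 38 genes was 239 (Sgcd in Qa-2- replicate 2), so none was near the floor. The genes that encode Qa-2 checked the labels: H2-Q7 had 6318 and 1251 counts in WT against 4 and 2 in Qa-2- uteri, while H2-Q6 had 4204 and 1192 against 3 and 3. All values below are CPM on library sizes scaled by TMM unless another scale is named, with replicate 1 before replicate 2 and WT before Qa-2-. The p-values measure the spread between these 4 animals.

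At term some of these genes were among the most abundant of the uterus, with 11 of the 38 within the first 100 genes by level per kilobase of exon. Summed over the 38 genes, the level was 52757 CPM in WT replicate 1, 87266 CPM in WT replicate 2, 50952 CPM in Qa-2- replicate 1 and 28346 CPM in Qa-2- replicate 2, or 5.28%, 8.73%, 5.10% and 2.83% of the scaled library. WT replicate 2 therefore stood highest and Qa-2- replicate 2 lowest, while the other WT and the other Qa-2- uterus were nearly level (1.04-fold). Per kilobase of exon, Actg2 was the highest member with a mean of 3039 CPM per kb over the 4 libraries (rank 7 of the genes kept), followed by Tagln with 2727 (rank 9) and Acta2 with 2358 (rank 10). Csrp1, Myl9 and Des followed with 1448, 1434 and 1276 CPM per kb, and Tpm2, Cnn1, Flna and Myh11 were next with 872, 606, 584 and 561. Of the 50 genes with the highest level per kb, 9 were members. At the lower end stood Myocd with 5.28, Ldb3 with 1.98 and Sgcd with 1.15 CPM per kb. Actins and actin-binding proteins thus held the first 3 places, and a transcriptional coactivator, a PDZ-LIM protein and a sarcoglycan the last.

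**Figure D1:**
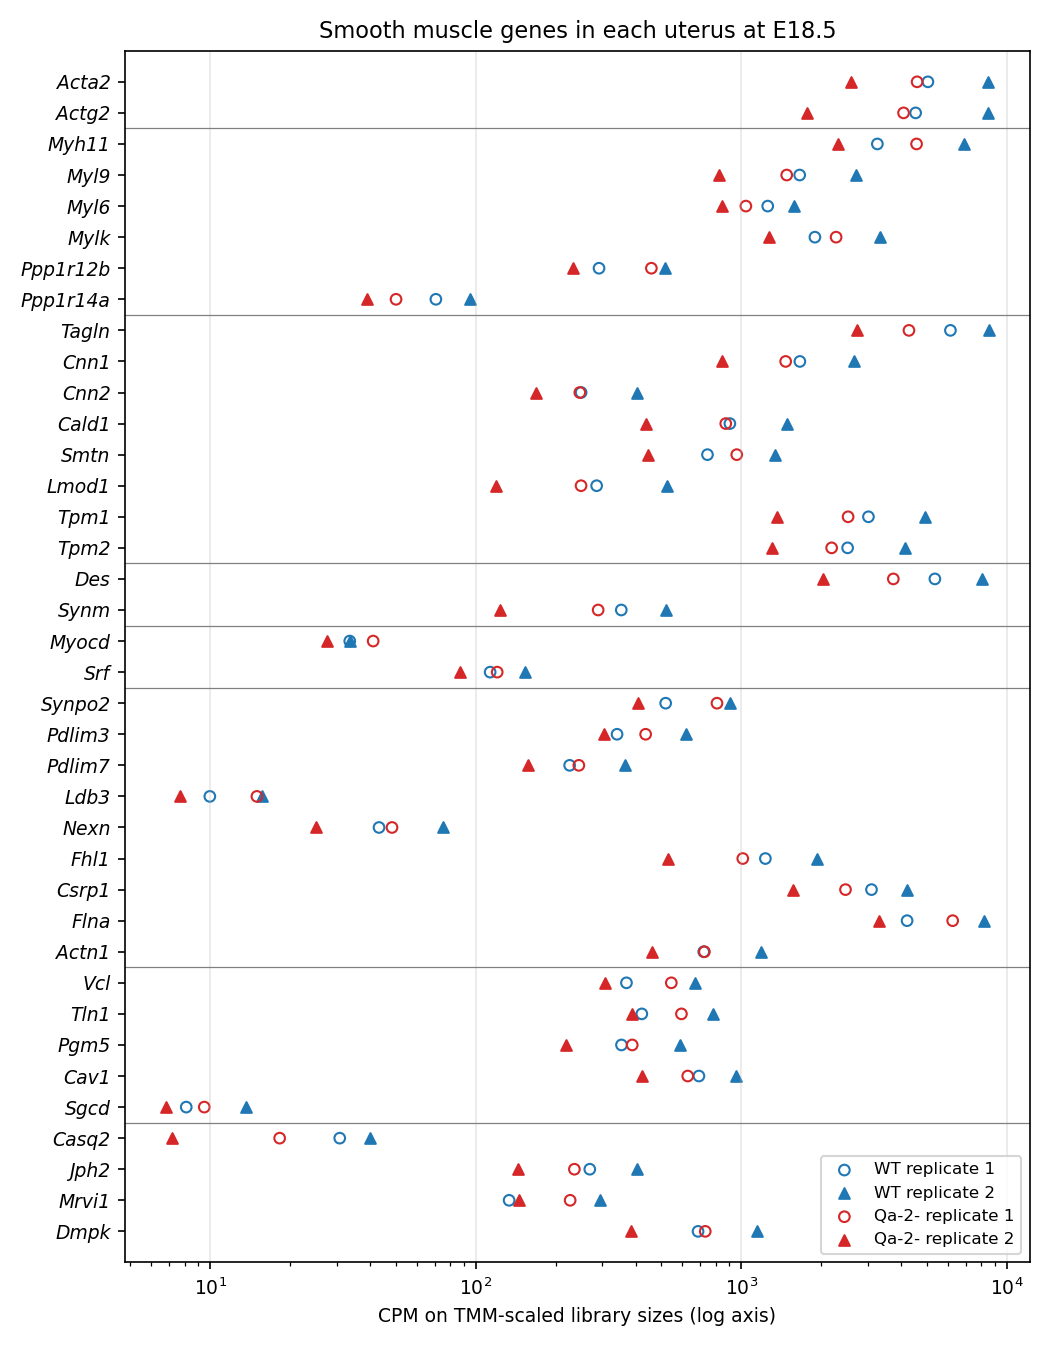
Level of the 38 genes in each uterus, as CPM on TMM-scaled library sizes on a log axis. Circles are replicate 1 and triangles replicate 2 (WT blue, Qa-2- red), and grey lines separate the functional groups. In 36 of 38 rows WT replicate 2 is the rightmost and Qa-2- replicate 2 the leftmost symbol.

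Compared between genotypes, 37 of the 38 genes had a higher fitted level in WT uteri and 1 (Myocd) a lower one. The log2 fold change, given as WT over Qa-2- throughout, had a median of 0.67, or 1.59-fold, and a range from -0.03 to 1.48, against a median of 0.01 for all genes kept, of which 51.1% were above 0. A log2 fold change of 1 or more was found in 8 of the 38 genes and in 4.02% of all genes kept. The mean summed level was 70011 ± 24402 CPM (SD, n = 2) in WT uteri, and 39649 ± 15985 CPM (SD, n = 2) in those of Qa-2- mice, a ratio of 1.77. The test was the quasi-likelihood test of edgeR, with Benjamini-Hochberg adjustment over all genes kept. It called no member at an adjusted p of 0.05, where 0% of all genes were called in either direction, and the smallest edgeR adjusted p among the 38 was 0.256 (Ppp1r14a). At an unadjusted p under 0.05, edgeR had 2 members, both higher in WT (Ppp1r14a and Casq2), where 8.09% of all genes were so with WT higher and 7.09% with Qa-2- higher. DESeq2's Wald test called 4 members (Ppp1r14a, Tagln, Des and Casq2), all higher in WT, where 2.79% of all genes were called with WT higher and 2.04% with Qa-2- higher. In whole tissue, fewer smooth muscle cells and less RNA of these genes per cell cannot be told apart.

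The direction leaned on the most extreme uterus of each group. The median log2 fold change was 0.29 without WT replicate 2 and 0.39 without Qa-2- replicate 2, with 11 and 7 of the 38 genes below 0. The genes below 0 in each of these fits were Ppp1r12b, Synpo2, Ldb3, Flna, Vcl, Mrvi1 and Myocd, and without WT replicate 2 these were joined by Myh11, Pdlim3, Tln1 and Sgcd. Without WT replicate 1 it was 0.97, and without Qa-2- replicate 1 it was 1.12, with 0 genes below 0 in the latter. The libraries of the genotypes did not overlap in 19 of the 38 genes, all higher in WT, where 25.4% of all genes had both WT libraries higher and 24.5% both Qa-2- libraries higher. In the other 19 genes the libraries overlapped. When any single library was left out, the log2 fold change ran from 0.52 to 1.40 for Myl9, from 0.52 to 1.35 for Cnn1, from 0.63 to 1.76 for Lmod1 and from 0.52 to 1.36 for Tpm2. For Csrp1, Srf and Cav1 it ran from 0.56 to 1.22, from 0.12 to 0.61 and from 0.39 to 0.96.

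**Figure D2:**
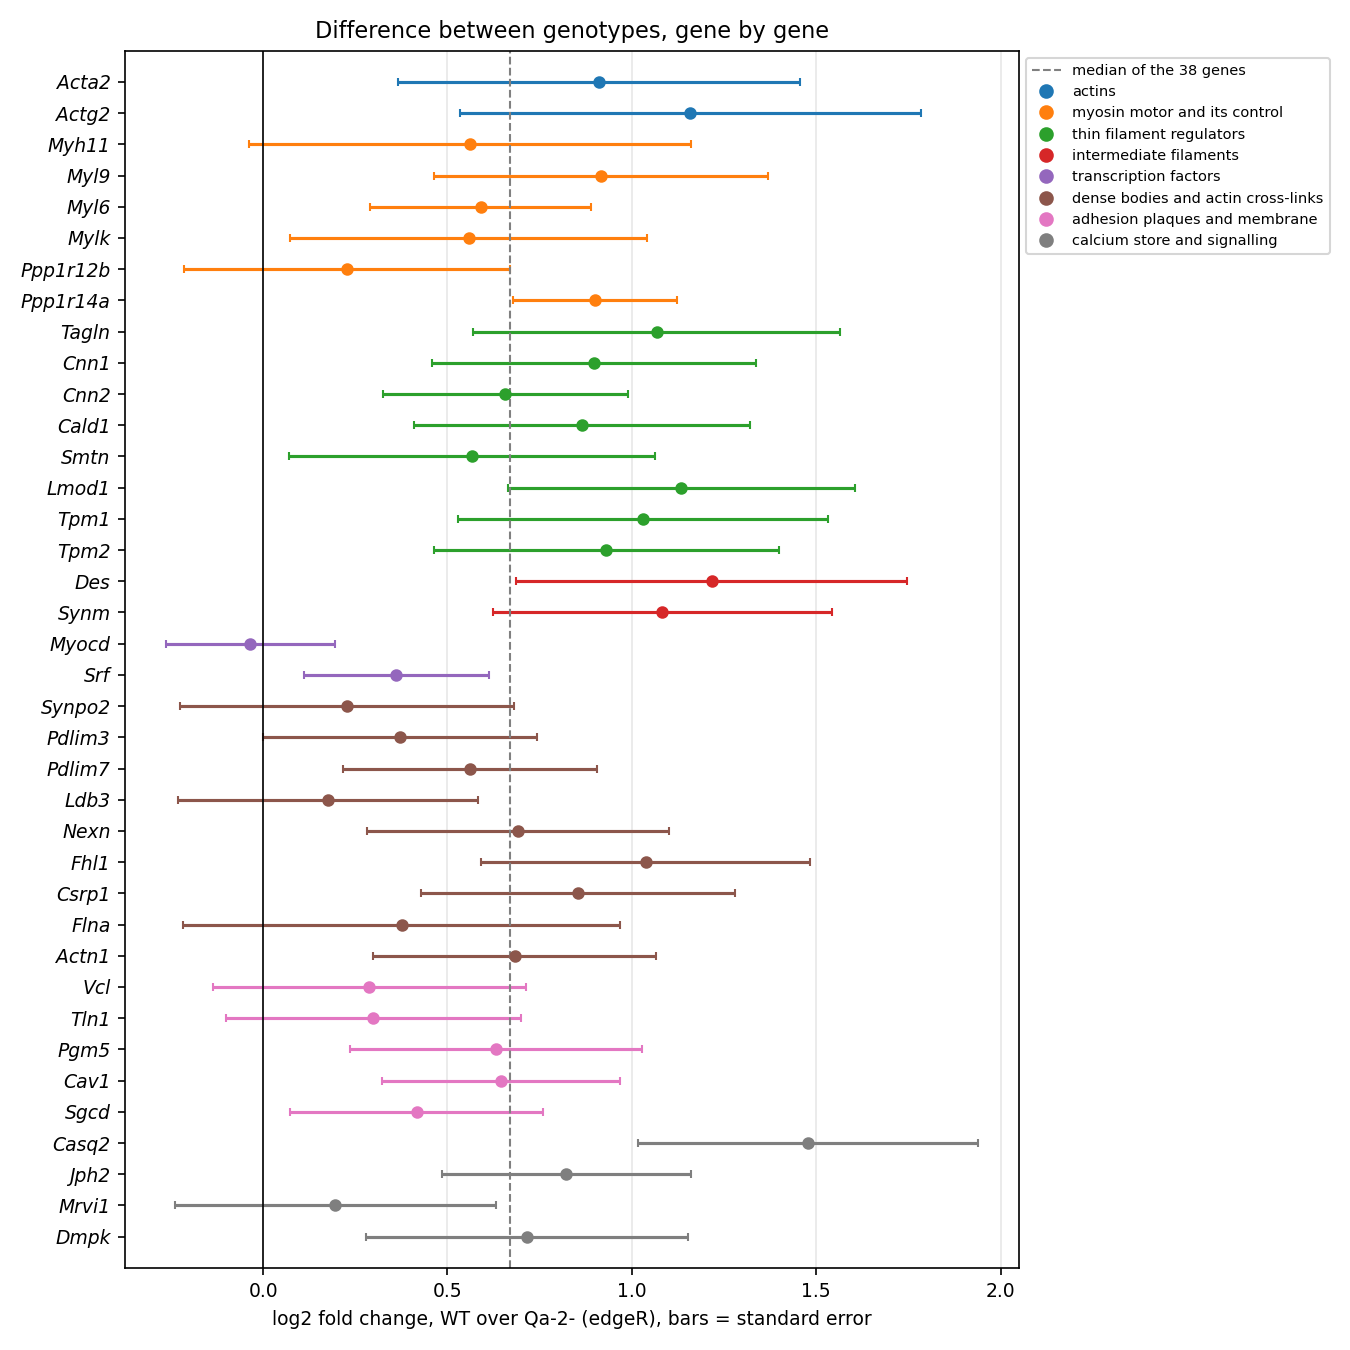
Log2 fold change (WT over Qa-2-) of the 38 genes, from edgeR, with the standard error as bars, coloured by functional group. The dashed line is their median of 0.67. The transcription factors and most genes of dense bodies and adhesion plaques lie left of it, and the actins and intermediate filament genes lie right of it.

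Both smooth muscle actins were high in every uterus. Acta2, the actin of vascular smooth muscle that is also made in myometrium (ENSMUSG00000035783, chromosome 19, 34241090 to 34255590), had 5047 and 8469.99 CPM in WT against 4596 and 2598 CPM in Qa-2- uteri. Its log2 fold change was 0.91 (standard error 0.55, edgeR adjusted p = 0.467). Actg2, the enteric actin that is characteristic of visceral smooth muscle (ENSMUSG00000059430, chromosome 6, 83512905 to 83536265), had 4537 and 8534 CPM in WT against 4086 and 1771 CPM. The log2 fold change of Actg2 was 1.16 (standard error 0.62, edgeR adjusted p = 0.429). With WT replicate 2 left out the log2 fold changes of Acta2 and Actg2 were 0.49 and 0.63, and with Qa-2- replicate 1 left out they were 1.38 and 1.88. For both actins the nearest uteri of different genotype were WT replicate 1 and Qa-2- replicate 1, and the farthest apart were WT replicate 2 and Qa-2- replicate 2, by 4.82-fold for Actg2 and 3.26-fold for Acta2.

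They are similar in sequence, and a read pair that mapped to several places was not counted. Their coding sequences were identical at 955 of 1134 aligned positions (84.2%), and the longest run of identical coding bases was 29. That run is shorter than a read of the study. The number of pairs lost in this way was not tested. The first bases of both coding sequences (GENCODE M21), from the start codon, are shown with capitals where they differ or where a base has no counterpart.
Acta2: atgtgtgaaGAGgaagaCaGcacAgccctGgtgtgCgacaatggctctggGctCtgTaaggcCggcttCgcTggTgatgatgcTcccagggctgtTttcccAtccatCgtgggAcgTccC
Actg2: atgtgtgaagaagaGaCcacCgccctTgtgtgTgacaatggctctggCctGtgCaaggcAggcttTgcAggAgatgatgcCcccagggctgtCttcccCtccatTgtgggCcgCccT

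Of the 6 genes for the myosin motor and its control, the median log2 fold change was 0.58 (0.23 to 0.92), and 3 had libraries that did not overlap with WT higher (25.4% of all genes). Myh11, the smooth muscle myosin heavy chain (ENSMUSG00000018830, chromosome 16, 14194535 to 14291372), had 3256 and 6901 CPM in WT against 4574 and 2307 CPM in Qa-2- uteri. WT replicate 1 was thus below Qa-2- replicate 1, and the log2 fold change of 0.56 (standard error 0.60, edgeR adjusted p = 0.679) became -0.083 without WT replicate 2. Myl9, the regulatory light chain that the kinase phosphorylates, had 1659.9 and 2697 CPM against 1483 and 826 CPM (log2 fold change 0.92, standard error 0.45). The kinase itself, Mylk, had a log2 fold change of 0.56 with overlapping libraries, which was 0.09 without WT replicate 2 and 1.04 without Qa-2- replicate 1, and Myl6, the essential light chain, one of 0.59.

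On the phosphatase side, Ppp1r12b, a targeting subunit of myosin phosphatase, had 291 and 517 CPM in WT against 459 and 232 CPM, and its log2 fold change of 0.23 (standard error 0.44) became -0.25 without WT replicate 2. Ppp1r14a, which encodes the phosphatase inhibitor CPI-17 (ENSMUSG00000037166, chromosome 7, 29289308 to 29293801), is named after its values were seen, as the member with the smallest p. It had 70.8 and 95.0 CPM against 50.1 and 38.8 CPM (log2 fold change 0.90, standard error 0.22, edgeR adjusted p = 0.256). Its libraries differed less within each genotype (1.34-fold and 1.29-fold) than between them, and its log2 fold change lay between 0.67 and 1.09 when any single library was left out.

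The 8 regulators of the thin filament had a median log2 fold change of 0.91 (0.57 to 1.13), and 7 of them had libraries that did not overlap with WT higher (25.4% of all genes). Tagln (transgelin, or SM22), an actin-binding protein typical of smooth muscle (ENSMUSG00000032085, chromosome 9, 45929619 to 45936058), had 6135 and 8545 CPM in WT against 4281 and 2725 CPM in Qa-2- uteri. Its log2 fold change was 1.07 (standard error 0.50, edgeR adjusted p = 0.380), and its range was 0.78 to 1.43 when any single library was left out. Cnn1, the basic calponin that holds back the actin-activated myosin ATPase, had 1663 and 2652 CPM against 1469.8 and 848 CPM, with a log2 fold change of 0.90. Both therefore stood higher in both WT uteri. For Cnn1, WT replicate 1 and Qa-2- replicate 1 were the nearest libraries.

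Lmod1, a leiomodin that nucleates actin filaments in smooth muscle, had 285 and 523 CPM in WT against 249 and 119 CPM (log2 fold change 1.13, standard error 0.47). Tpm2, a tropomyosin that lies along the actin filament, had 2515 and 4140.1 CPM against 2190.00 and 1301 CPM, with a log2 fold change of 0.93. Tpm1, Cald1 (caldesmon) and Cnn2 had log2 fold changes of 1.03, 0.87 and 0.66. Smtn, which encodes the actin-binding protein smoothelin, was the member of this group with overlapping libraries, at 746 and 1338 CPM against 962 and 445 CPM. Its log2 fold change of 0.57 was 0.082 without WT replicate 2 and 1.23 without Qa-2- replicate 1.

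The pair of intermediate filament genes had the highest group median, 1.15, with no overlap in either gene (25.4% of all genes had none with WT higher). Des, which encodes desmin, the main muscle intermediate filament (ENSMUSG00000026208, chromosome 1, 75360329 to 75368579), had 5362 and 8038 CPM in WT against 3739 and 2027 CPM in Qa-2- uteri. The log2 fold change of Des was 1.22 (standard error 0.53, edgeR adjusted p = 0.357), 0.84 to 1.72 when any single library was left out. Synm, or synemin, which joins desmin to the membrane and dense bodies, had 353 and 522 CPM against 289 and 124 CPM, a log2 fold change of 1.08 (standard error 0.46), 0.60 without Qa-2- replicate 2 and 1.82 without Qa-2- replicate 1. For Synm the Qa-2- uteri differed from each other 2.33-fold, more than the WT uteri (1.48-fold).

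Both transcription factors lay below the median of the 38 genes. Myocd, the muscle coactivator myocardin, had 33.5 and 33.5 CPM in WT against 41.1 and 27.6 CPM in Qa-2- uteri (log2 fold change -0.03, standard error 0.23, edgeR adjusted p = 0.952). The WT libraries were level for Myocd, although WT replicate 2 was 1.64-fold above WT replicate 1 in the median of the 38 genes. Srf had 113 and 153 CPM against 120.4 and 87.0 CPM (log2 fold change 0.36, standard error 0.25), and its libraries overlapped. A p above the threshold does not show that either factor was equal between the genotypes.

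Among the 9 genes of dense bodies and actin cross-links, the median log2 fold change was 0.56 (0.18 to 1.04), and 2 (Fhl1 and Csrp1) had libraries that did not overlap with WT higher, a share near the 25.4% of all genes. Csrp1, an LIM protein of the actin cytoskeleton and the most abundant of them per kb, had 3094 and 4197 CPM in WT against 2469.6 and 1567 CPM (log2 fold change 0.85, standard error 0.43). Flna, the filamin that cross-links actin, had 4213 and 8181 CPM against 6256 and 3297 CPM. WT replicate 1 was lower than Qa-2- replicate 1 for Flna, and its log2 fold change of 0.38 (standard error 0.59) became -0.18 without WT replicate 2.

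Synpo2, a Z-disc and dense body protein also known as myopodin, had 519 and 909 CPM in WT against 810.1 and 410.03 CPM in Qa-2- uteri, with a log2 fold change of 0.23 (-0.24 when WT replicate 2 was left out). Ldb3, a PDZ-LIM protein, was scarce at 9.96 and 15.6 CPM against 15.0 and 7.66 CPM, with a log2 fold change of 0.18 (-0.23 when Qa-2- replicate 2 was left out). In both, the genotypes alternated in the order of the 4 uteri. The other members of this group, Actn1, Nexn, Pdlim3 and Pdlim7, had log2 fold changes of 0.68, 0.69, 0.37 and 0.56, each with overlapping libraries. Exons of Nexn and Pdlim7 share 7.50% and 1.40% of their bases with a gene on the same strand, and pairs in such stretches were not counted.

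The 5 genes of adhesion plaques and the membrane had the smallest group median after the transcription factors, 0.42 (0.29 to 0.65). Tln1, or talin, which links integrins to actin, had 422 and 786 CPM in WT against 595 and 387 CPM, and its log2 fold change of 0.30 (standard error 0.40) became -0.22 without WT replicate 2. Cav1, the main protein of caveolae, was the only one of the 5 without overlap, which 25.4% of all genes had with WT higher, at 693 and 952 CPM against 629 and 423 CPM (log2 fold change 0.65, standard error 0.32). Vcl (vinculin), Pgm5 (aciculin) and Sgcd (a sarcoglycan) had log2 fold changes of 0.29, 0.63 and 0.42.

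The 4 genes of the calcium store and signalling held both the largest log2 fold change and one of the smallest. Casq2, which encodes a calsequestrin that binds calcium in the sarcoplasmic reticulum (ENSMUSG00000027861, chromosome 3, 102086415 to 102146514), had 30.7 and 40.1 CPM in WT against 18.3 and 7.15 CPM in Qa-2- uteri. Its log2 fold change was 1.48 (standard error 0.46, edgeR adjusted p = 0.286), 0.96 to 2.31 when any single library was left out. The Qa-2- uteri differed 2.55-fold from each other for Casq2, and the WT uteri 1.30-fold.

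Mrvi1, which encodes a partner of the inositol trisphosphate receptor and of the cGMP kinase, had 134 and 293 CPM in WT against 227 and 145 CPM. WT replicate 1 was the lowest of the 4 uteri for this gene and WT replicate 2 the highest, and its log2 fold change of 0.20 (standard error 0.44) became -0.48 without WT replicate 2. Dmpk, the myotonic dystrophy kinase, had 688 and 1147 CPM against 732 and 384 CPM, with a log2 fold change of 0.72, which was 0.30 without WT replicate 2 and 1.25 without Qa-2- replicate 1. Jph2, a junctophilin that holds the sarcoplasmic reticulum near the membrane, had a log2 fold change of 0.82 without overlap.

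The uteri of one genotype differed from each other about as much as the genotypes did, and nearly always the same way. WT replicate 2 exceeded WT replicate 1 in 37 of the 38 genes, where 49.9% of all genes did so, by a median of 0.71 on the log2 scale (1.64-fold, from -0.00 to 1.13). Qa-2- replicate 1 exceeded Qa-2- replicate 2 in 38 of 38 genes, where 50.6% of all genes did so, by a median of 0.83 (1.77-fold, 0.29 to 1.35). These gaps were wide for this dataset: the median absolute log2 ratio of all genes kept was 0.27 between the WT and 0.25 between the Qa-2- libraries, and 17.0% and 8.85% of genes differed by at least the median of the 38.

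**Figure D3:**
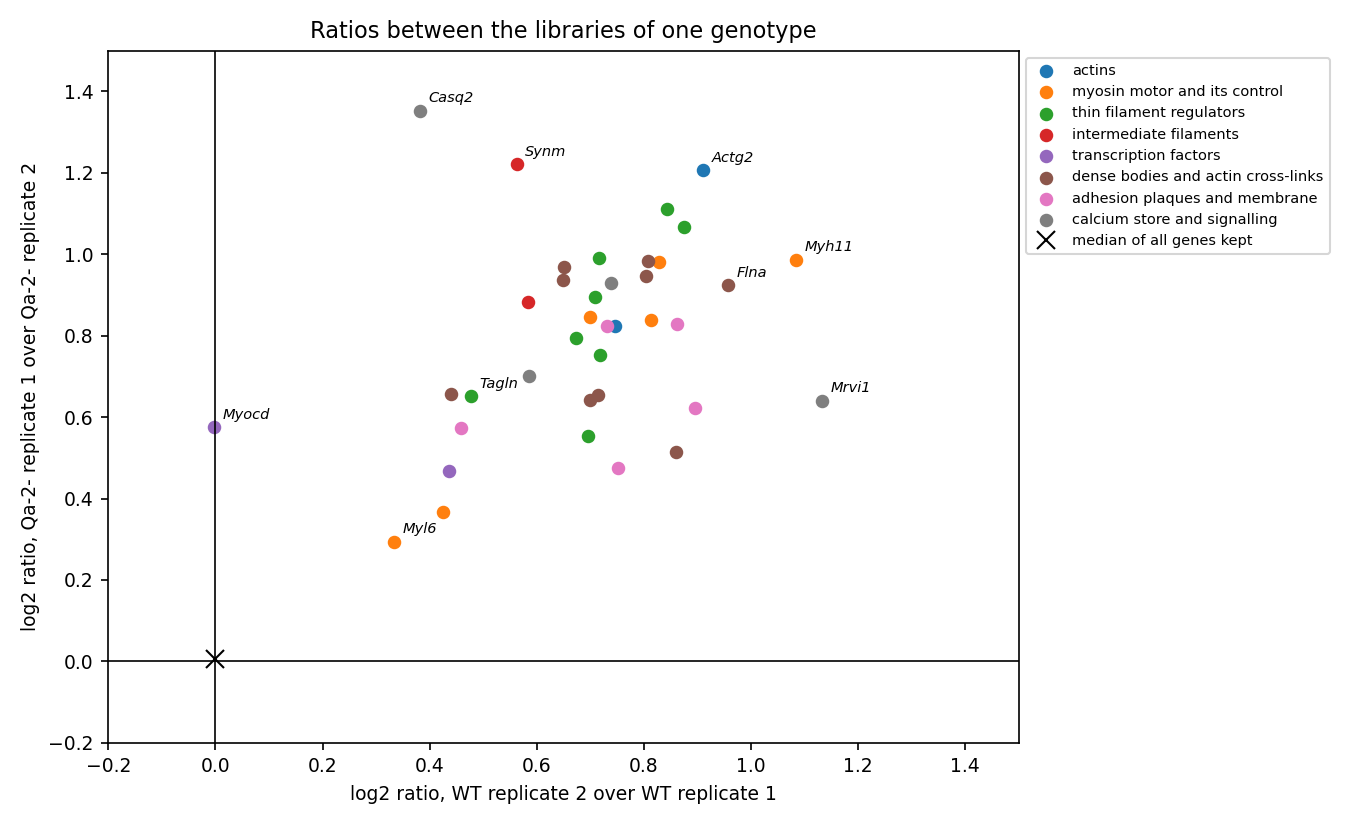
Log2 ratio between the WT libraries (horizontal) and between the Qa-2- libraries (vertical) for each of the 38 genes, coloured by functional group. The cross is the median of all genes kept, near 0 on both axes. Myocd sits on the vertical line at 0, and the other 37 genes lie to the right of it, and all 38 lie above the horizontal line.

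Only a few genes left this common order. The 38 genes took 4 of the possible orders of the libraries. In 19 genes the order was WT replicate 2, WT replicate 1, Qa-2- replicate 1 and Qa-2- replicate 2, which 9.09% of all genes had, and in 17 the inner pair was exchanged, which 6.90% of all genes had. The first group held both actins, both intermediate filament genes and 7 of the 8 thin filament regulators, and the second held Myh11, Mylk, Flna, Srf and most genes of dense bodies and adhesion plaques. Myocd and Mrvi1 each had an order of their own. Between the replicates numbered 1, which were nearly level in total, 19 of 38 genes were higher in WT and the median log2 ratio was 0.00. Between those numbered 2, 38 of 38 were higher in WT, with a median log2 ratio of 1.42 (2.68-fold, 0.28 to 2.49). Crossed, WT replicate 1 over Qa-2- replicate 2 had 37 of 38 genes higher with a median of 0.73, and WT replicate 2 over Qa-2- replicate 1 also had 37, with a median of 0.65. The replicate number is used only as a name here, since the labels do not say whether same-numbered animals were paired.

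Because the total moved so much, the share of each gene in the summed CPM of the 38 genes was compared as well. By share, 12 genes were higher in both WT uteri and 20 in both Qa-2- uteri, where scaling all genes to this sum put WT higher in 1.48% of them and Qa-2- higher in 52.5%. The 20 of 38 were thus near the share of all genes. The mean sum was lower in Qa-2- uteri, which lifts the scaled values of other genes there. Members make up the sum, so some shares must rise where others fall, and the 12 cannot be set against the 1.48%. RNA of Des made up 10.2% and 9.21% of the sum in WT against 7.34% and 7.15% in Qa-2- uteri, and that of Tagln 11.6% and 9.79% against 8.40% and 9.61%. RNA of Flna made up 7.99% and 9.37% in WT against 12.3% and 11.6%, and that of Myh11 6.17% and 7.91% against 8.98% and 8.14%. The shares of these genes did not overlap between the genotypes. The gap was narrow for Tagln (9.79% against 9.61%) and for Myh11 (7.91% against 8.14%).

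Another feature, which the choice of genes did not use, was the length of the gene. Between the replicates numbered 1, the log2 ratio of WT over Qa-2- was lower in longer genes across the 38 (log2 exon length, Pearson r = -0.68, Spearman rho = -0.67), as a description over genes that share the same pair of libraries. Over 14487 genes kept with a count in both, the values were -0.20 and -0.34. Between the replicates numbered 2, the Pearson r was -0.31 over the 38 genes and -0.03 over all. Within a genotype it was positive, at 0.36 for WT replicate 2 over WT replicate 1 and 0.18 for Qa-2- replicate 1 over Qa-2- replicate 2, where all genes had 0.080 and 0.12. Of the 12 shortest members (1162 to 3187 bases of exon), 11 were higher in WT replicate 1, and of the 12 longest (6485 to 14983 bases) 3 were. The median of this ratio was 0.19 in the short and -0.49 in the long members, and 0.22 over the 4844 genes kept that were as short and -0.22 over the 3860 that were as long. For the log2 fold change between the genotypes, the short members had a median of 0.90 and the long ones 0.40, where all genes as short and as long had 0.12 and -0.13. With all 4 libraries the correlation with length was -0.56 over the 38 genes and -0.13 over all 14492 genes kept. The part of gene length in the differences between the uteri was not tested.

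**Figure D4:**
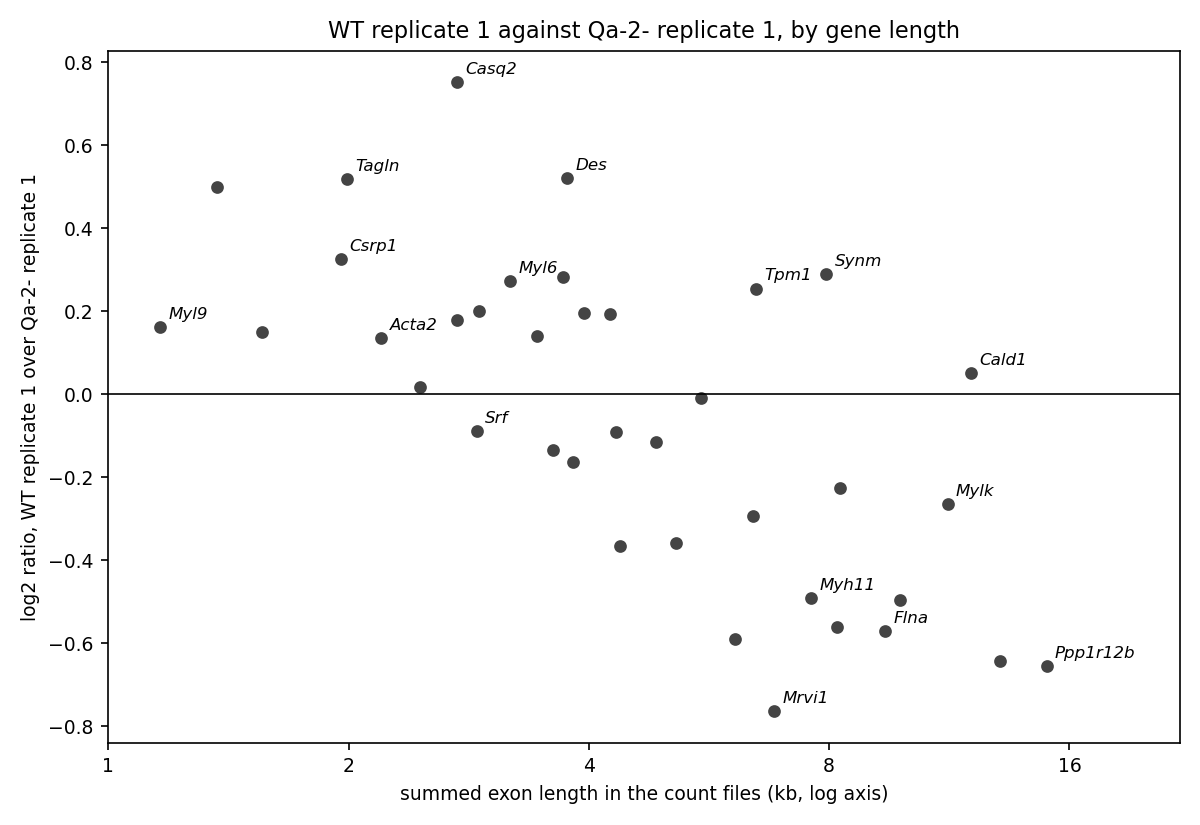
Log2 ratio of WT replicate 1 over Qa-2- replicate 1 (vertical) against summed exon length in kb on a log axis (horizontal), 1 point for each of the 38 genes. Short genes such as Tagln, Csrp1 and Myl9 lie above 0, and long ones such as Myh11, Flna and Ppp1r12b lie below.

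Further smooth muscle genes that are no members had the same uteri highest and lowest in their sum, though not in every gene. Of 30 such genes, all kept, 26 were higher in the second WT replicate than in the first, and 28 in the first Qa-2- replicate than in the second. Their sum was 5940.0, 8588, 5957 and 3973 CPM in the order used above, and their median log2 fold change was 0.52, from -0.93 (Pln, phospholamban, a brake of the calcium pump) to 2.61 (Mustn1). Mustn1, a small nuclear protein gene of muscle, had 83.7 and 52.0 CPM in WT against 12.5 and 9.66 CPM in Qa-2- uteri. It was among the genes that did not have this order. edgeR called 0 of the 30 at an adjusted p of 0.05. At an unadjusted p under 0.05 there were 3, all with WT higher, beside 8.09% of all genes. DESeq2 called 3 (Mustn1, Gucy1a1 and Hspb8, the latter pair named after their values were seen), all with WT higher, beside 2.79% of all genes. In 10 of the 30 the libraries did not overlap with WT higher, beside 25.4% of all genes, and in 3 with Qa-2- higher, beside 24.5%.

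The enzymes and regulators that act on the myosin light chain formed a list of 17 genes, which had a median log2 fold change of 0.26, from -0.66 for Rgs2 to 2.43 for Rgs4, both of which encode dampers of G protein signalling. Rgs4 had 17.0 and 43.7 CPM in WT against 6.93 and 4.29 CPM. Non-muscle actomyosin, the cytoskeleton of all cells, had a median of 0.06 over 12 genes, up to 0.54 (Zyx), and sums of 8474, 10893, 8660 and 7277 CPM. The SRF cofactors and related factors had a median of -0.15 over the 11 genes kept, from -0.53 (Klf5) to 0.67 (Elk3). edgeR called none of these genes at an adjusted p of 0.05. At an unadjusted p under 0.05 the light chain list had 2 genes with WT higher and 1 with Qa-2- higher, the non-muscle list 0 and the SRF list 1 with WT higher, beside 8.09% and 7.09% of all genes in these directions. DESeq2 called 1 gene of the light chain list (Rgs4, with WT higher) and 0 of the others, beside 2.79% and 2.04%.

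Markers of other cells in the tissue pieces moved too, some along with the smooth muscle genes. The 9 vascular mural genes had sums of 903, 1524, 898 and 632 CPM, the same order as the 38 genes, with a median log2 fold change of 0.56 from 0.27 to 1.48. The 9 endothelial genes had sums of 1414, 1234, 631 and 597 CPM and a median of 0.89, so the order of their sums differed from that of the smooth muscle genes. All 9 were higher in both WT uteri, beside 25.4% of all genes. edgeR called 0 of the 9 at an adjusted p of 0.05, all 9 had an unadjusted p under 0.05 (beside 8.09% of all genes), and DESeq2 called 8 (beside 2.79%). Stromal fibroblast genes summed to 21219, 40441, 44467 and 23874 CPM over 8 genes, with a median of -0.21. The collagen genes Col1a1, Col1a2 and Col3a1, named after their values were seen, made up most of each sum. They ranked the uteri alike, with 5472, 14316.5, 15144 and 7398 CPM for Col1a1. Col1a2 had 5414, 12318, 14135 and 7547 CPM, and Col3a1 5323, 9732, 11755 and 6049 CPM. Within each genotype, the uterus with more collagen RNA was also the one with more smooth muscle RNA. Of the 8 genes, 5 had this direction within WT and 7 within Qa-2-. The 8 genes did not share an order of the uteri: Lum had 793, 494, 359.6 and 221 CPM and Fbln1 411, 356, 713 and 963 CPM.

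**Figure D5:**
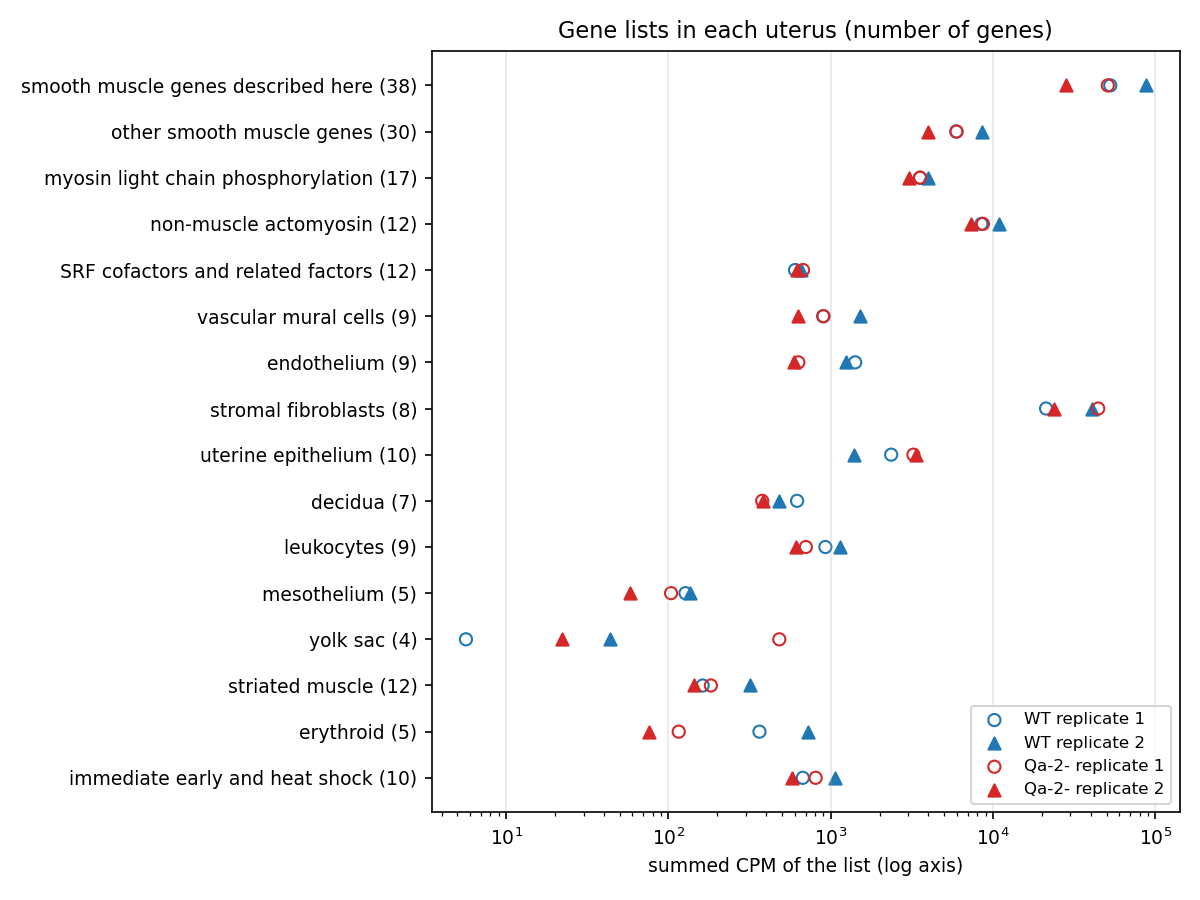
Summed CPM of each gene list in each uterus on a log axis, with the number of genes in brackets, symbols as in the plot of levels by gene. The trophoblast list, at or below 30.5 CPM in every uterus, is left out. The 38 smooth muscle genes have their highest symbol in WT replicate 2 and their lowest in Qa-2- replicate 2, and so have the further smooth muscle, light chain, non-muscle actomyosin, mural, leukocyte, mesothelial, striated muscle, erythroid and immediate early lists. In the mesothelial list Wt1 has the largest part of the sum, and only 1 of the 5 genes was higher in WT replicate 2 than in WT replicate 1.

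The 10 genes of uterine epithelium summed to 2357, 1399, 3231 and 3337 CPM, with a median log2 fold change of -0.81, lowest in the uterus with the most smooth muscle RNA. Of these, 7 had both Qa-2- libraries higher (24.5% of all genes), and DESeq2 called 2 (2.04% with Qa-2- higher). Leukocyte genes (9, median 0.47) summed to 927, 1137, 703 and 610.4 CPM, and decidual genes (7, median 0.33) to 620.3, 478, 378 and 385 CPM. The 5 mesothelial genes, from the outer lining of the uterus, had a median of 3.42, although their sum was 127, 136, 104 and 58.1 CPM. Wt1 had the largest part of this sum, with 63.3, 82.9, 82.9 and 46.6 CPM. Only 1 of the 5 genes was higher in WT replicate 2 than in WT replicate 1. The 5 erythroid genes had a median of 2.41 and sums of 364, 722, 116 and 75.6 CPM, again highest in WT replicate 2 and lowest in Qa-2- replicate 2. Both WT libraries were higher in 7 leukocyte, 2 decidual, 4 mesothelial and 5 erythroid genes (25.4% of all genes), and DESeq2 called 3, 0, 3 and 5 (2.79% of all genes with WT higher). Both WT libraries were higher in 4 mural and 2 fibroblast genes, and both Qa-2- libraries in 1 leukocyte and 2 fibroblast genes, while DESeq2 called 1 mural gene with WT higher and 3 fibroblast genes, 1 of them (Fbln1) with Qa-2- higher. At an adjusted p of 0.05, edgeR called 0 genes in each of these lists.

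Fetal markers were uneven. Trophoblast genes summed to 0.399, 30.5, 3.61 and 0.172 CPM, with 1 of 9 kept and 3 (Prl3d1, Gcm1 and Synb) at 0 in all libraries, and the 4 yolk sac genes to 5.66, 43.3, 482 and 22.1 CPM, so that Qa-2- replicate 1 held more yolk sac RNA than the other uteri. The 10 immediate early and heat shock genes, which respond to handling of tissue, summed to 673, 1068, 807 and 579 CPM with a median of 0.17. The share of each tissue layer in the pieces cannot be told apart from expression per cell in these values, and the part of other cell types in the results for smooth muscle was not tested.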

How the data were processed

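Read pairs per gene were counted by the authors with featureCounts 2.0.0 on GRCm38 (exons by gene, reverse strand, both ends mapped, mapping quality of at least 3, no multi-mapping or multi-gene pairs) and deposited as raw counts without normalization for 55421 genes in each of 4 libraries. The submitters' processing notes also name STAR 2.7.3a and the build GRCm38.p6. Symbols were taken from GENCODE M21, and 267 identifiers had none. A symbol held by more than 1 identifier was given to the one with the largest count.

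The filter on low values (a minimum of 1 CPM reached by a minimum of 2 samples) was worded as in the study's methods, which name no test for the transcriptome, but kept another number of genes here than the study gives. Counts were scaled by TMM (factors 0.957 to 1.05) and compared as WT over Qa-2- with edgeR 4.0.16 in R 4.3.3 (quasi-likelihood test, package defaults, Benjamini-Hochberg adjustment over all genes kept, threshold 0.05). The standard error is the log2 fold change divided by the root of the F statistic. Overlap between genotypes was read from CPM on scaled library sizes, and levels between genes from CPM per kb of the exon length in the count tables. On simulated counts for 14492 genes, in this comparison, edgeR called 13 of 101 genes changed by 1 on the log2 scale, 76 of 99 changed by 2, and 15 unchanged genes, with 0 in the wrong direction. DESeq2 called 39 of 101, 85 of 99 and 56 unchanged genes in the same counts, so its calls included more unchanged genes.

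The members and lists were chosen with earlier results of these data known. Values in every library are given for the 10 members with the highest level per kb, the 5 highest and 5 lowest log2 fold changes, the 5 largest ratios within each genotype, and the highest member of each role. Of other lists, at most the highest and lowest genes are named, apart from genes at 0 in all libraries and those said to be named after their values were seen, and some genes are not reported here. The replicate numbers 1 and 2 come from the labels. The deviations of same-numbered samples correlated at -0.37 over 14492 genes, a value that cannot show whether same-numbered animals were paired. The main test used no pairing. The libraries of each genotype differed by more than sampling noise (241 and 151 chi-square per gene), so none was counted as a copy. The alternatives were DESeq2 1.42.0, library totals, upper-quartile factors, no filter, a minimum of 10 counts in every sample, members left out of the scaling, haemoglobin and mitochondrial genes removed, a replicate block, and each library left out, and the crossed pairing was added after the data were seen.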

Additional observations from a re-analysis of the deposited data

How the results depend on the processing

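For the changes given here the cause was not tested. With TMM and the filter edgeR called 0 genes, while DESeq2 called 700 genes (404 with WT and 296 with Qa-2- higher), the fit without a filter 61 (47 and 14) and the replicate block 2 (2 and 0). Of the 38 smooth muscle genes DESeq2 called 4, and of the 30 further ones DESeq2 called 3 and the fit without a filter 1 (Mustn1). With each library left out in turn, which assumes that the remaining uterus of a group varies like the other group, the count of all genes was between 0 and 93 (4 without WT replicate 1, 93 without WT replicate 2), that of the 38 genes 0 each time, and that of the further ones between 0 and 1. The median of the 38 genes was 0.29 to 1.12 in these fits and 0.58 (library totals, where all genes had -0.08) to 0.68 under the alternatives with 4 libraries, and that of the further genes 0.18 to 0.94 (0.94 without Qa-2- replicate 1). The lowest and highest log2 fold change was -0.083 and 1.14 for Myh11, -0.25 and 0.80 for Ppp1r12b, -0.29 and 0.28 for Myocd, -0.24 and 0.80 for Synpo2, -0.13 and 0.71 for Pdlim3, -0.23 and 0.74 for Ldb3, -0.18 and 0.91 for Flna, -0.21 and 0.76 for Vcl, -0.22 and 0.65 for Tln1, -0.011 and 0.72 for Sgcd, and -0.48 and 0.63 for Mrvi1. The same-numbered samples correlated at -0.37, and with the replicate block or the crossed pairing (chosen after seeing the data) the median of the 38 genes was 0.67 and 0 of them were called. The smallest edgeR adjusted p among the 38 was 0.486 with the block and 0.075 with the crossed pairing. Without pairing it was 0.256, so it depended on the pairing assumed. The replicate block changed no other call. The lowest count among the 38 genes was 239, and the effect of depth on the calls was not tested.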

Other observations

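Among 12 genes of striated muscle, 6 passed the expression filter and 3 (Myh1, Myh4 and Myog) were at 0 in all libraries. Acta1, the skeletal muscle actin and the gene of the list with the highest log2 fold change, had 130.2 and 261 CPM in WT against 117 and 100.4 CPM in Qa-2- mice, and its log2 fold change was 0.85 (standard error 0.36, edgeR adjusted p = 0.350). Its coding sequence is 85.4% identical to that of Acta2 and 84.9% to that of Actg2, and its order of the libraries was that of both. Tnni2, a fast troponin and the lowest of the list, had 11.4 and 25.1 CPM against 33.6 and 22.8 CPM.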
